A study of Rattus norvegicus with 10 samples.

Results

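Of the 14782 SOX9 peaks mapped in RCS cells, 1899 overlapped an H3K27ac peak by 1 bp or more and overlapped no SOX6 and no H3K4me3 peak. They are called SOX9-only acetylated sites below. They were chosen by these 4 measured peak lists, so what those lists show about them is a description. The RCS line was derived from a chondrosarcoma of the rat, and the labels name no treatment. ChIP-seq, in which DNA bound by a protein or histone mark is isolated with an antibody and sequenced, gave 6 peak lists. They map SOX9 and SOX6 and, among histone marks, H3K4me1, H3K4me3, H3K9me3 and H3K27ac, each from 1 library, and 4 input libraries were made without antibody. All libraries come from this 1 tumour line, so the sites describe these libraries and there is no replicate error. The intervals given below are 95% intervals for counting error only, and peaks of 1 library are not replicates, so no p-value is given.

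SOX9 is a master transcription factor of the chondrocyte lineage. It binds DNA through a high-mobility-group domain and activates cartilage genes. SOX6, which shares that type of domain but lacks a transactivation domain of its own, acts together with SOX9 and SOX5 in cartilage. Among the marks mapped, H3K4me3 is typical of promoters and H3K4me1 of enhancers, H3K27ac is found at both when they are active, and H3K9me3 is a mark of heterochromatin. A SOX9 peak with H3K27ac and without H3K4me3 therefore has the marks of an active site away from a promoter. The rule adds only that no SOX6 peak was called there, and SOX6 may still bind below the lowest score of its list.

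The sites made up 12.8% of all SOX9 peaks (95% Wilson interval 12.3% to 13.4%), a share the rule itself sets. They were 31.1% (30.0% to 32.3%) of the 6101 SOX9 peaks with H3K27ac and without H3K4me3. The other 4202 of these overlapped a SOX6 peak and are called shared acetylated sites. They met every condition of the rule except that on SOX6. The counterpart on the other side was 3075 SOX6 peaks with H3K27ac, without H3K4me3 and without SOX9. A genome sequence of the files' build, rn5, was not used here, so no site is assigned to a gene and no site sequence is shown.

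SOX9 peaks at the SOX9-only acetylated sites had low scores. The authors' peak score, whose scale the sources used here do not state, ran from 50.03 to 817.82, with a median of 73.1 (quartiles 58.3 and 107). At the shared acetylated sites the median was 163 (89.7 and 333) and the highest value was 3100. The SOX9-only peaks without H3K27ac or H3K4me3 scored lower still, with a median of 56.5 (52.5 and 64.6). The SOX9-only acetylated sites thus sat between those classes, with wide overlap. SOX9-only peaks with H3K4me3 scored much the same, with a median of 70.1 (57.15 and 97.7), and the median over all SOX9 peaks was 90.3. Low scores were thus not particular to the SOX9-only acetylated sites. Ranked in percent within their own lists, they had a median of 38.6 and SOX6-only acetylated sites 40.6. A score of 100 or more was reached by 535 of them, which is 28.2%, against 70.6% of shared acetylated sites. A score of 400 or more was reached by 15 of them (0.790%) and by 844 shared acetylated sites (20.1%). The peaks were also narrower than shared ones, with a median width of 445 bp (332 and 596) against 595 bp (438 and 807).

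The share of acetylated SOX9 peaks without H3K4me3 that lacked SOX6 fell from class to class of the SOX9 score. In the lowest quintile of the score over all SOX9 peaks, up to 57.94, it was 64.3% (458 of 712 peaks). It was 53.5%, 39.9% and 21.2% in the quintiles between, and 4.12% (63 of 1530 peaks) in the highest, from 244.32 upwards. These values come from the lists that chose the sites and are a description.

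**Figure D1:**
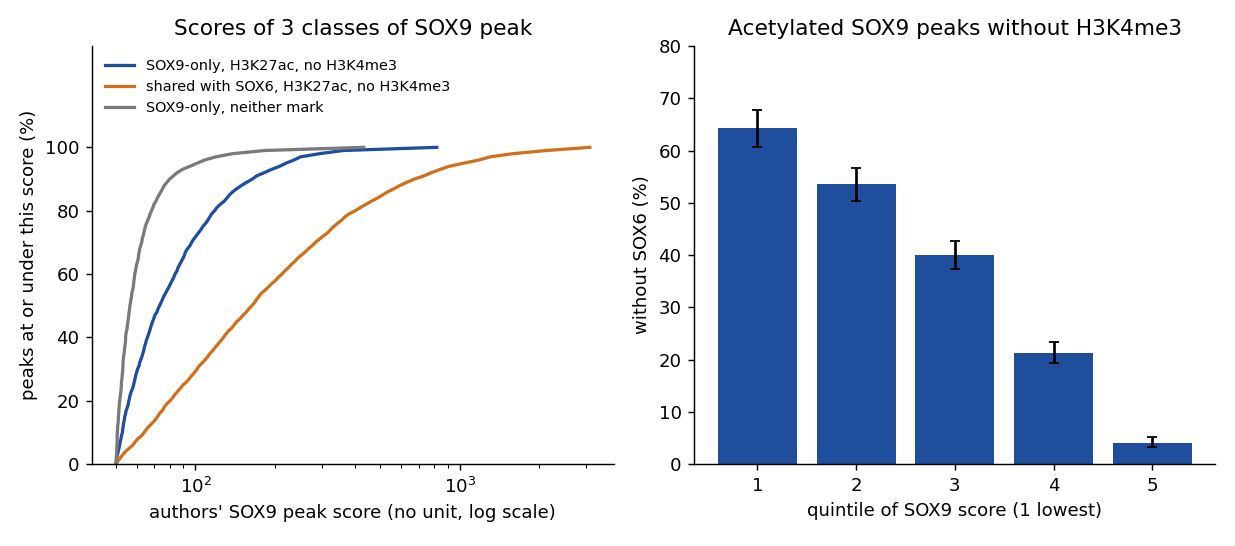
Left, the share of peaks (%) at or under each value of the authors' SOX9 score (log axis) for SOX9-only acetylated sites, shared acetylated sites and SOX9-only peaks with neither H3K27ac nor H3K4me3. Right, the share (%) of acetylated SOX9 peaks without H3K4me3 that lacked SOX6, by quintile of SOX9 score, with Wilson 95% intervals for counting error; the leftmost bar stands at 64.3% and the rightmost at 4.12%.

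The 10 highest-scoring sites lay from 39 bp to 110 kb from the nearest SOX6 peak. All 10 met H3K4me1 and 0 met H3K9me3, close to the 93.4% and 4.74% over all 1899 sites. In 8 the SOX9 peak was the only one on its H3K27ac peak, as on 1548 of the 1862 H3K27ac peaks with a SOX9-only site. For 6 of the 10 the nearest SOX6 peak was more than 20 kb away, and for the other 4 it was within 2 kb. So few sites cannot show separate groups. The highest score, 817.82, belonged to a 444 bp peak on chromosome 3 from 170688917 to 170689360 (rn5), on an H3K27ac peak of 935 bp. Its nearest SOX6 peak was 73.2 kb away, and its nearest H3K4me3 peak was 22.9 kb away. The second, with a score of 775.34, lay on the same chromosome from 169575111 to 169575836, only 175 bp from a SOX6 peak with a score of 198.4. Both stood on the same H3K27ac peak of 4619 bp.

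The sites with a distant SOX6 peak included one with a score of 560.4 on chromosome 4 (42551523 to 42552746) and one with a score of 507.32 on chromosome 16 (48260974 to 48262210). These were wide, at 1224 and 1237 bp, and their nearest SOX6 peaks, 29.1 kb and 38.9 kb away, scored 53.18 and 50.3, close to the lowest value of the SOX6 list. On chromosome 9 the site from 14518829 to 14519422 (score 484.67) had its nearest SOX6 peak at 37.4 kb. For that on chromosome 19 from 64016131 to 64016723 (469.28) it was at 88.2 kb, and for that on chromosome 2 from 205536106 to 205536749 (445.39) at 110 kb. The remaining sites of the 10 stood close to SOX6. A peak of 1205 bp on chromosome 7 from 138758472 to 138759676 (655.82) lay 1854 bp from a SOX6 peak. A peak of 247 bp on chromosome 17 from 7465085 to 7465331 (465.45) lay 39 bp from one, and a peak of 307 bp on chromosome 18 from 78457122 to 78457428 (430.34) lay 1426 bp from one. Over all 15 sites with a score of 400 or more, 10 had no SOX6 peak within 5 kb and 5 had one within 2 kb. Among all 1899 sites, 30.3% had one within 5 kb.

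The nearest SOX6 peak was typically some kilobases away. Between edges, the median distance was 16055 bp (quartiles 3122 and 49604 bp), and between centres it was 16489 bp. A SOX6 peak lay within 100 bp of 76 sites, within 500 bp of 218 (11.5%), within 5 kb of 575 (30.3%), within 10 kb of 776 (40.9%, 38.7% to 43.1%) and within 50 kb of 1430 (75.3%). The sites were thus spread over distances from a few base pairs to beyond 50 kb. Over all 6453 SOX9 peaks without SOX6, which include these sites, the median distance was 27058 bp. A SOX6 peak lay within 500 bp of 8.59% of them, within 5 kb of 22.5%, within 10 kb of 31.3% and within 50 kb of 64.5%. Being nearer than that base was not particular to the SOX9-only acetylated sites. SOX9-only peaks with H3K4me3 were about as far as those sites, with a median of 17547 bp and 30.9% within 5 kb. SOX9-only peaks without either mark were farther, with a median of 58233 bp and 15.1% (13.7% to 16.6%) within 10 kb. The SOX6-only acetylated sites had a median distance of 13541 bp to the nearest SOX9 peak, with 43.8% (42.1% to 45.6%) within 10 kb.

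**Figure D2:**
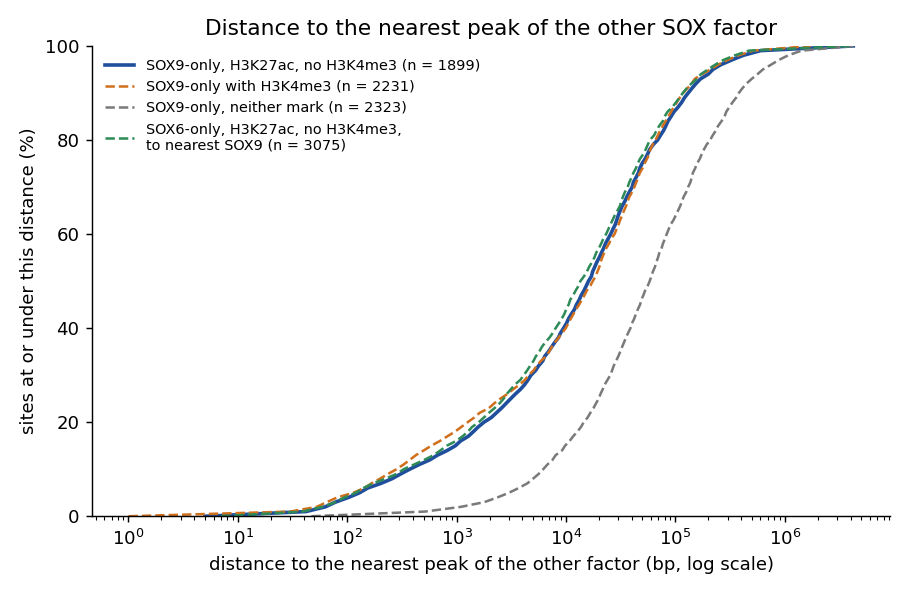
Share of sites (%) at or under each distance between edges (bp, log axis) to the nearest peak of the other SOX factor, for SOX9-only acetylated sites, SOX9-only peaks with H3K4me3, SOX9-only peaks with neither mark and, towards SOX9, SOX6-only acetylated sites. The first, second and last curves run close together, with medians of 16055, 17547 and 13541 bp, while sites with neither mark lie farther away, with a median of 58233 bp.

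At the edge of the rule, the 3 sites nearest to SOX6 were separated from it by 5, 10 and 13 bp. The first, on chromosome 15 from 87860797 to 87861047, had a SOX9 score of 62.38. The second, on chromosome 6 from 2737600 to 2737862, scored 53.82, and the third, at 54322266 to 54322710 of chromosome 15, scored 178.6. The 3 acetylated sites left out by the smallest overlap shared 22, 26 and 42 bp with SOX6. In that order they were a peak with a score of 86.1 on chromosome 13 (74739879 to 74740854), one of 90.85 on chromosome 1 (194158884 to 194159403) and one of 50.37 on chromosome 15 (18502763 to 18503048). In all, 23 sites lay within 50 bp of a SOX6 peak without touching it, and 5 shared acetylated sites met SOX6 over 50 bp or less. Towards H3K27ac, the smallest overlap of a site was 6 bp, and 64 sites had under 50% of their length inside H3K27ac.

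At the other extreme, a site on the X chromosome from 130964820 to 130965318 (score 120.2) was 4.23 Mb from the nearest SOX6 peak. It had H3K27ac with a score of 379.11 and no H3K4me1. The next was 1.81 Mb away, on chromosome 14 (97291837 to 97292296). It was followed by sites at 1.49 Mb on chromosome 8 (2990475 to 2990890), at 1.30 Mb on chromosome 2 (233321658 to 233322109) and at 1.21 Mb on chromosome 1 (112866378 to 112866697). These 4 all met H3K4me1 and had SOX9 scores from 51.69 to 70.67. The last of them stood on an H3K27ac peak with a score of 2703.45 and a width of 3410 bp.

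Sites close to SOX6 differed from distant ones in their acetylation more than in their SOX9 score. Median SOX9 scores were 70.3 for the 218 sites at 500 bp or less, 67.0 for the 357 sites up to 5 kb, 74.6 for the 855 sites up to 50 kb and 76.5 for the 469 sites beyond. The H3K27ac peak under the site had median scores of 3100, 2201, 759 and 501 in the same order, and median widths of 3182, 2343, 1765 and 1485 bp. The part of the width of the H3K27ac peak in the distance was not tested. Of the nearest group, 94.5% shared their H3K27ac peak with a SOX6 peak. The 214 SOX6 peaks next to that group had a median score of 139, against 104 over the SOX6 list, and 152 of them (71.0%) overlapped a different SOX9 peak. Over the 1899 sites, Spearman's rho with distance was 0.0969 for the SOX9 score and -0.363 for the H3K27ac score, as a description across sites of the same libraries.

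H3K4me1, which the rule did not use, was present at nearly all sites. It overlapped 1773 of 1899, or 93.4% (92.2% to 94.4%). Over all SOX9 peaks the share was 74.8%, over acetylated SOX9 peaks 84.3%, over those without H3K4me3 94.7%, and over all H3K27ac peaks it was 80.8%. The share at shared acetylated sites was 95.4% (94.7% to 96.0%), and at SOX6-only acetylated sites it was 95.1% (94.3% to 95.8%). The difference from shared acetylated sites was -1.99 percentage points (Newcombe interval -3.34 to -0.758) and that from SOX6-only acetylated sites -1.72 points (-3.13 to -0.404). Both are small beside the gap to the other SOX9-only classes, where H3K4me1 was present at 58.7% of peaks with H3K4me3 and 25.3% of those with neither mark.

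The small deficit of H3K4me1 had no order over the quintiles of SOX9 score. The difference from shared acetylated sites was -5.37 points (-8.66 to -1.68) in the lowest quintile, -4.17 points (-6.69 to -1.77) in the second, 0.559 points (-2.02 to 2.92) in the third, -3.64 points (-7.20 to -0.860) in the fourth and -0.760 points (-9.69 to 3.31) in the highest. With shared acetylated sites weighted to the SOX9-only make-up by score quintile, their share was 96.3%. Weighted by width quintile alone it was 92.2%, below that of the SOX9-only sites, but weighted by score and width together it was 95.5%. With SOX9 peaks narrowed to 400 bp the difference was -1.62 points (-2.99 to -0.363). The order turned when peak centres were used, although that interval includes 0: 91.2% of SOX9-only and 90.5% of shared acetylated sites had the centre inside an H3K4me1 peak, a difference of 0.696 points (-0.910 to 2.21).

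**Figure D3:**
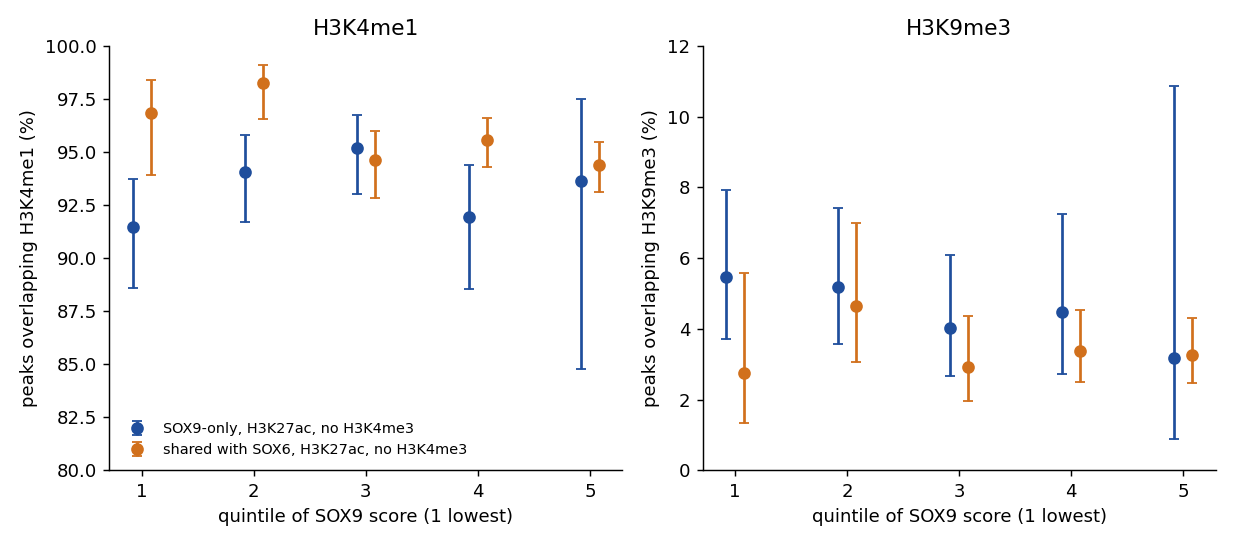
Share of peaks (%) overlapping H3K4me1 (left, axis from 80%) and H3K9me3 (right), by quintile of SOX9 score, for SOX9-only acetylated and shared acetylated sites. Points are shares and bars Wilson 95% intervals for counting error; H3K4me1 lies between 91.5% and 98.2% in every quintile of both classes.

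The geometry of H3K4me1 differed between the classes. The SOX9 peak lay wholly under H3K4me1 at 85.1% of SOX9-only and 79.9% of shared acetylated sites. It touched H3K4me1 while its centre lay outside at 42 SOX9-only sites (2.21%) and 206 shared ones (4.90%), and it reached 2 H3K4me1 peaks at 19 and 209 sites. The shared peaks were wider, and the part of width in these counts was not tested. The 1753 H3K4me1 peaks under SOX9-only sites had a median score of 646 and a median width of 1865 bp, against 155 and 945 bp over the whole H3K4me1 list and 825 and 2033 bp under shared acetylated sites.

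Only 126 sites had no H3K4me1 peak. Their SOX9 peaks had a median score of 67.6 and a median width of 305 bp, compared with 73.3 and 455 bp for sites with H3K4me1. Their H3K27ac peaks had a median score of 559, compared with 1001. An H3K4me1 peak was nevertheless within 1 kb of 72 of them (57.1%), at a median distance of 598 bp over the 126.

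The H3K27ac peaks that held a SOX9-only acetylated site were wide and high-scoring within their list, less so than those with a shared site. The 1862 such peaks had a median score of 908 (quartiles 254 and 3100) and a median width of 1845 bp. The 4037 with a shared acetylated site had medians of 1909 and 2213 bp, and the 23557 without any SOX9, SOX6 or H3K4me3 peak had medians of 114 and 781 bp. The 1477 of the 1862 that themselves lacked SOX6 and H3K4me3 had medians of 586 and 1578 bp. A score of 3100 or more was found at 25.9% of the 1862, 39.8% of the 4037 and 1.23% of the 23557. It was found at 206 of the 1477 that lacked SOX6 and H3K4me3. Over all 50834 H3K27ac peaks this share was 18.9%, with medians of 332 and 1212 bp. Over the 31153 without H3K4me3 it was 6.41%. Unlike the 23557, the 1862 and the 4037 could carry SOX6 or H3K4me3 elsewhere on the peak. A single SOX9 peak was present on 1548 of the 1862, and 57 held 2 SOX9-only acetylated sites. Elsewhere on the same H3K27ac peak, 331 (17.8%) carried a SOX6 peak and 167 (8.97%) an H3K4me3 peak. The SOX9 peak lay wholly inside H3K27ac at 85.6% of sites and its centre did so at 96.3%, with a median of 609 bp from the centre to the closer edge.

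Among the 25048 H3K27ac peaks without SOX6 or H3K4me3, 1477 (5.90%) held a SOX9-only site, and this share was higher in classes of higher H3K27ac score. It was 1.45% in the lowest of 4 equal classes below the score of 3100, then 2.02%, 4.25% and 13.0%, and 41.5% (37.3% to 45.9%) of the 496 peaks at 3100 or more. Width grew with the score, from a median of 590 bp to 3133 bp. Per Mb covered by these peaks there were 24.4, 28.5, 41.9, 76.1 and 133 SOX9-only sites. The part of width in these shares was not tested.

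Within each of those score classes below 3100, acetylated peaks with a SOX9-only site met H3K4me1 more often than those without one. In the lowest class the shares were 83.1% (74.0% to 89.5%) and 61.2% (59.9% to 62.4%), in the second 92.7% and 66.9%, in the third 93.5% and 79.5%, and in the fourth 97.0% (95.6% to 98.0%) and 92.7% (92.0% to 93.4%). At a score of 3100 or more they were 100% (206 of 206 peaks) and 99.7%. Over all classes 95.6% (94.4% to 96.5%) of acetylated peaks with a SOX9-only site met H3K4me1. Those without a SOX9 peak, weighted to the same make-up by score class, reached 87.3%.

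**Figure D4:**
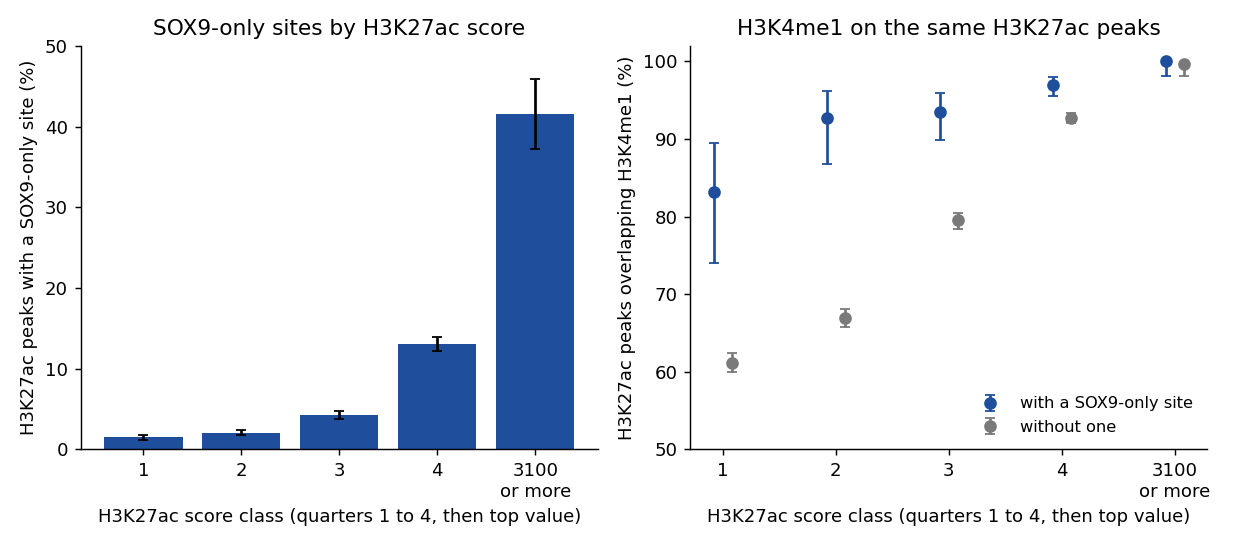
H3K27ac peaks without SOX6 or H3K4me3, in 4 equal classes of H3K27ac score below 3100 and a class at 3100 or more. Left, the share (%) that held a SOX9-only site, from 1.45% to 41.5%; right, the share (%) overlapping H3K4me1 for peaks with and without such a site (axis from 50%), with Wilson 95% intervals for counting error.

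H3K9me3, the second mark outside the rule, was rare. It overlapped 90 of the 1899 sites, 4.74% (3.87% to 5.79%), and 72 of these had the SOX9 centre inside it. The share was 3.31% over all SOX9 peaks, 2.93% over acetylated SOX9 peaks, 3.79% over those without H3K4me3 and 8.84% over all H3K27ac peaks. It was 3.36% (2.85% to 3.94%) at shared acetylated sites, a difference of 1.38 percentage points (0.335 to 2.55), and 4.72% at SOX6-only acetylated sites, a difference of 0.0239 points (-1.16 to 1.28). Within quintiles of SOX9 score every interval of the difference from shared acetylated sites included 0: the difference was 2.70 points (-0.610 to 5.55) at the lowest scores and -0.0974 points (-2.62 to 7.63) at the highest. Only 2 sites of the highest quintile met H3K9me3. Weighted to the SOX9-only make-up, shared acetylated sites stood at 3.45% by score quintile, 2.27% by width quintile and 3.02% by both. The difference was 1.84 points (0.941 to 2.87) for centres inside H3K9me3 and 1.71 points (0.719 to 2.81) with SOX9 peaks narrowed to 400 bp.

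The H3K9me3 overlaps were unevenly spread over the chromosomes. Chromosomes 16, 7 and 9 held 15, 14 and 12 of the 90, which is 19.5% (12.2% to 29.7%), 10.9% and 12.2% of their SOX9-only sites, while chromosome 2 held 1 among 157 sites (0.637%). The same 3 chromosomes had the highest input, at 2.05, 1.91 and 2.03 times the median chromosome in reads per Mb. Chromosome 11, with 1.63 times the median, held 1 overlap among 58 sites, and chromosome 12, with 0.994 times the median, held 4 among 42 (9.52%, 3.77% to 22.1%). The overlaps thus did not follow the input on every chromosome. On chromosomes 7, 9, 11 and 16 together, the 4 with more than 1.5 times the median input, 11.6% (8.70% to 15.3%) of 362 SOX9-only sites and 7.48% of 816 shared acetylated sites met H3K9me3. On the other 17 chromosomes the shares were 3.12% (2.36% to 4.12%) and 2.36% (1.90% to 2.93%), and the difference was 0.760 points (-0.188 to 1.85). The H3K9me3 list itself held 30.6 peaks per Mb on the 4 chromosomes together and 15.8 on the others. Chromosome 11 had 14.3, and chromosome 12, among the others, had 76.3. Over the 21 chromosomes, Pearson's r between input and the share with H3K9me3 was 0.770 and Spearman's rho 0.640. Without the 2 chromosomes farthest from the median input r was 0.537. Chromosomes share the libraries and their depth, and the part of copy number in these overlaps was not tested.

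**Figure D5:**
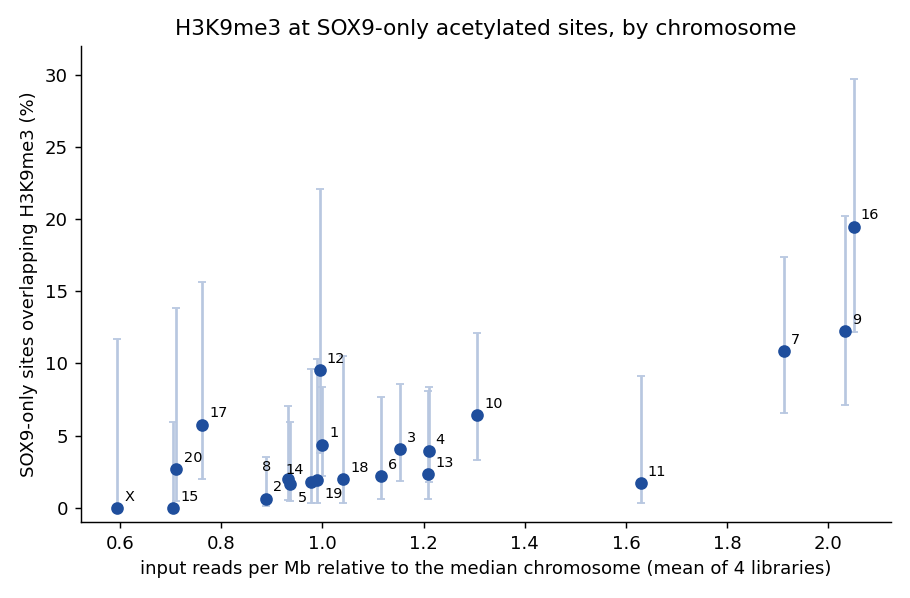
Share of SOX9-only acetylated sites (%) overlapping H3K9me3 on each chromosome (labelled) against input reads per Mb relative to the median chromosome, averaged over 4 input libraries, with Wilson 95% intervals for counting error. Chromosomes 7, 9 and 16 are high on both axes, at 10.9%, 12.2% and 19.5%, while chromosome 11 has an input of 1.63 and a share of 1.72%.

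Over all chromosomes the share with H3K9me3 was lower far from SOX6, without a steady order over the nearer distance groups. Of the 1123 sites with no SOX6 peak within 10 kb, 3.38% (2.48% to 4.61%) met H3K9me3, below the 4.74% of all 1899 sites. The sites with a SOX6 peak within 10 kb thus had a higher share. With the slightly wider planned distance, 3.07% (2.19% to 4.31%) of the 1041 sites beyond it met H3K9me3. Whether the contrast at 10 kb holds at both input levels was not tested. H3K9me3 was met by 2.56% (1.47% to 4.42%) of the sites more than 50 kb from SOX6, and by 4.59%, 6.72% and 5.15% of those at 500 bp or less, up to 5 kb and up to 50 kb. On the 17 chromosomes with lower input the shares were 1.23% (5 of 407 sites) beyond 50 kb and 4.12%, 4.56% and 3.41% in the nearer groups. On the 4 chromosomes with higher input they were 11.3% (7 of 62 sites) beyond 50 kb. In the nearer groups there they were 6.25% (3 of 48), 15.3% (11 of 72) and 11.7% (21 of 180). The lowest share there was that of the nearest sites, but it rests on only 3 overlaps. The H3K9me3 peaks on SOX9-only sites had a median score of 133 and a median width of 924 bp, against 87.8 and 701 bp over that list.

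Compared with acetylated peaks that no SOX9 peak met, those with a SOX9-only site carried less H3K9me3. Among H3K27ac peaks without SOX6 or H3K4me3, 8.06% (6.78% to 9.56%) of the 1477 with a SOX9-only site met H3K9me3, against 11.9% (11.5% to 12.3%) of the 23557 without SOX9. Weighted to the same H3K27ac score classes, the latter share was 13.6%. On the 17 chromosomes with lower input, 5.62% (4.45% to 7.08%) of peaks with a site and 9.25% (8.83% to 9.69%) of those without one met it. On the 4 chromosomes of higher input the shares were 18.2% (14.2% to 23.1%) and 19.9% (18.9% to 20.9%), and their intervals overlap. Against shared acetylated sites, whole H3K27ac peaks gave the opposite order to the SOX9 peaks themselves. H3K9me3 met 8.97% (7.75% to 10.4%) of the 1862 H3K27ac peaks with a SOX9-only site. It met 11.1% (10.2% to 12.2%) of the 4037 with a shared one. The latter were wider, and the part of width was not tested.

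Most sites stood apart from one another. Joining sites no more than 10 kb apart left 1664 of them (87.6%) without another SOX9-only site, with 110 pairs and 5 runs of 3. These counts depend on the distance, which was set after the values were seen. The nearest other SOX9-only site was 198279 bp away in the median. The nearest SOX9 peak of any kind was 16554 bp away, close to the 16715 bp found for shared acetylated sites. One lay within 10 kb of 41.9% (39.7% to 44.1%) of SOX9-only and 41.3% (39.9% to 42.8%) of shared acetylated sites. A shared acetylated site lay within 10 kb of 391 SOX9-only sites (20.6%, 18.8% to 22.5%), while 23.9% (22.6% to 25.2%) of shared acetylated sites had another of their kind that near. For SOX9-only peaks without either mark the share was 3.87% (3.16% to 4.74%).

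The run with the highest summed score lay on chromosome 1 between 153084966 and 153094813 (rn5). H3K27ac covered 93.3% of its 9848 bp and H3K4me1 82.4%, and it held 0 SOX6 peaks. The next, on chromosome 2 between 224003735 and 224007669, also held 0 SOX6 peaks and was under H3K4me1 over 100% and H3K27ac over 72.6% of its length. Another run without SOX6 lay on chromosome 10 between 81129504 and 81135176, with H3K27ac over 61.5%. The run on chromosome 19 between 49218568 and 49232000 held 5 SOX9 and 2 SOX6 peaks. The run on chromosome 7 between 118406063 and 118412572 held 1 SOX6 peak and was the only one of the 5 with H3K4me3. None of these 5 runs, which hold 15 sites, met H3K9me3, a mark present at only 4.74% of all 1899 sites.

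With H3K27ac peaks joined over 10 kb, a distance set after the values were seen, the sites fell into 1714 regions. A SOX6 peak was somewhere in the region of 902 sites (47.5%, 45.3% to 49.7%). The planned joining distance was slightly wider. The share there, which can only be the same or higher, is not given here. A shared acetylated site was in the region of 547 (28.8%, 26.8% to 30.9%). An H3K4me3 peak was in the region of 40.4% (38.3% to 42.7%) of SOX9-only and 39.8% (38.3% to 41.3%) of shared acetylated sites. The regions had a median length of 8856 bp over SOX9-only and 10654 bp over shared acetylated sites. The nearest H3K4me3 peak was 21690 bp away in the median, against 24334 bp for shared acetylated sites, and lay within 10 kb of 32.3% (30.3% to 34.5%) and 27.7% (26.3% to 29.1%).

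SOX9-only acetylated sites were found on all 21 chromosomes of the lists. Their density went from 0.188 per Mb on X to 1.11 per Mb on chromosome 10 and moved with the input (Pearson's r = 0.602, Spearman's rho = 0.666 over 21 chromosomes; r = 0.585 without the 2 farthest from the median input). As a share of acetylated SOX9 peaks without H3K4me3 they went from 25.8% (20.4% to 32.1%) on chromosome 14 to 44.6% (34.4% to 55.3%) on chromosome 20, which rests on 37 of 83 peaks. That share had a Pearson's r of -0.156 and a Spearman's rho of -0.0779 with the input (r = -0.249 without those 2).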

How the data were processed

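The data are 10 samples of RCS cells: 6 immunoprecipitations and 4 inputs. Per the submitters' processing notes CASAVA 1.8 and build rn5 were used. Peaks were called per library by the authors with MACS, per the peak names; the sources used here do not state the version, settings or control. The authors deposited a score for each peak, with no stated scale, a lowest value close to 50 and many ties at 3100. Scores were used within a list only. Input files hold raw read counts per chromosome, deposited without normalization (36873004 to 131858579 reads, 53.4% to 53.5% aligned). The depth of the immunoprecipitated libraries is unknown.

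Intervals were read as counted from 0 and are printed counting from 1. Overlap meant 1 bp or more. Distances are gaps between edges, and sites or peaks were joined over 10 kb, a little less than planned. Input level is reads without mismatch per Mb up to the last peak end, relative to the median chromosome. Shares carry Wilson intervals and differences Newcombe intervals (95%), computed with statsmodels 0.14.6 in Python 3.11.15. Overlap, distance and coverage routines were tested on simulated intervals. The H3K27ac peak with most overlap was taken as that of a site. Named sites are the 10 with the highest score, the 5 farthest from SOX6, the 3 nearest, the 3 excluded by least overlap and the 5 largest runs. The sites, classes and lists were chosen with earlier results of these data known. The split by input level, the 10 kb distance, the weightings and the H3K27ac score classes were added after the values were seen. Genes and sequences on rn5 were not analysed here.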

Additional observations from a re-analysis of the deposited data

How the results depend on the processing

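The number of SOX9-only acetylated sites was 1123 with no SOX6 peak allowed within 10 kb, 1041 with that exclusion slightly wider as planned, 656 among SOX9 peaks above the median score and 2921 when SOX6 peaks below their median score were ignored. The median distance to SOX6 was then 40769, 44425, 19423 and 32783 bp. It was 22716 bp with no SOX6 peak within 1 kb and 11556 bp with H3K27ac peaks above their median score; leaving out near sites raises it by construction. The share with H3K4me1 was 94.6% with H3K27ac peaks above their median score, 85.7% with H3K4me1 peaks above theirs and 91.2% for centres. Its difference from shared acetylated sites was -4.11 points with the higher-scoring H3K4me1 peaks and turned to 0.696 points for centres. The share with H3K9me3 was 3.38% with no SOX6 peak within 10 kb and 3.07% with the wider exclusion. Settings that changed the SOX6 rule also moved sites between the SOX9-only and the shared class. Sites with SOX6 inside the exclusion distance thus counted as shared. The difference from that enlarged class was -0.493 points (-1.57 to 0.832) and -0.859 points (-1.92 to 0.473), and both intervals include 0. Shared acetylated sites as defined above stood at 3.36%. The share of SOX9-only sites with H3K9me3 was 3.26% with H3K9me3 peaks above their median score, 3.79% for centres and 3.12% without the 4 chromosomes of high input. The exclusion within 10 kb and the chromosomes left out were chosen after seeing the data. The causes were not tested. The remaining alternatives left each value inside its counting interval, or each count within 1.5 times. In some of them the interval of a difference from shared acetylated sites came to include 0. For H3K4me1 this was so with H3K27ac peaks above their median score, at -0.885 points (-2.37 to 0.429), and with SOX9 peaks above theirs, at -1.36 points (-3.64 to 0.490). For H3K9me3 it was so with SOX9 peaks above their median score, at 0.738 points (-0.710 to 2.63), with SOX6 peaks above theirs, at 0.880 points (-0.0801 to 1.86), and without the 4 chromosomes of high input, at 0.760 points (-0.188 to 1.85). With 1 library per antibody, no library could be left out. No paired analysis was possible because each antibody has 1 library.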
